A study of Mus musculus with 2 samples.

Results

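The deep gene-body peaks of NANOG in mouse embryonic stem cells are described here. They are the peaks of the authors' optimal mm10 set on chromosomes 1 to 19 and X whose summit lay inside a protein-coding gene and more than 10 kb from every protein-coding transcription start site (TSS). The rule uses position alone, so signal and replicate support played no part in it. It was met by 5606 of 15852 optimal peaks on these chromosomes (35.4%, exact 95% interval 34.6 to 36.1), and 39 further optimal peaks lay on other sequences. Of the rest, 6963 peaks (43.9%) were intergenic beyond 10 kb, meaning outside every protein-coding gene and more than 10 kb from every TSS. The other 3283 (20.7%) lay within 10 kb of a TSS. The members fell in 2861 host genes.

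The study used ChIP-seq, in which DNA bound by NANOG is pulled down with an antibody and sequenced, on the male embryonic stem cell line E14TG2a.4 of strain 129/Ola, with an age of 3.5 days in the labels of both samples. It has 1 group of 2 biological replicates of this line with 1 antibody and no treatment in the labels, so no conditions were compared. The 2 replicates come from the same line and donor, and the experiment that the labels name as a possible control was not analysed here. Read depth is unknown, no RNA was measured, and the cell type in the labels could not be checked against expressed markers.

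NANOG, a homeodomain protein that helps to keep embryonic stem cells pluripotent, binds DNA together with OCT4 and SOX2, mostly at enhancers away from promoters. Enhancers often lie in introns, where they can act on the gene that contains them or on a neighbouring gene, so an intronic site does not name its target. Long genes offer more intronic sequence, and many of the longest mouse genes encode neuronal adhesion and synapse proteins that embryonic stem cells use little.

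Sequence from the peaks is shown first. Peak centres on mm9 were read from the mm9 genome, because mm10 sequence outside promoter windows was not used here, and each window reaches 50 bp to each side of the midpoint of a series-level mm9 peak that met the same position rule on the mm9 annotation. The 8 windows below come from the hosts with most member peaks per length that also had a series-level mm9 peak, 1 window for the peak of highest enrichment in each. Capitals mark any of 6 short motifs on either strand: ATGCAAAT (OCT octamer), CATTGT (SOX), CCATTA (NANOG core), AAGGTCA (ESRRB), GGGNGTGG (KLF, with any base at N) and GGAATG (TEAD). All 8 centres lay in introns.
Apobec3, mm9 chr15:79739680-79739780, plus strand: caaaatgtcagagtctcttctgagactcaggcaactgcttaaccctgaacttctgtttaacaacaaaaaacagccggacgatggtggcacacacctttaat
Plagl1, mm9 chr10:12827879-12827979, plus strand: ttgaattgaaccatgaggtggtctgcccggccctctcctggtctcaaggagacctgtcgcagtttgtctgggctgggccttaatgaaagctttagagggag
Etv5, mm9 chr16:22402830-22402930, plus strand: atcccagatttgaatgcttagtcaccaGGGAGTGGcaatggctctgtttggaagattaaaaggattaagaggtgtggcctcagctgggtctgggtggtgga
Brd1, mm9 chr15:88539331-88539431, plus strand: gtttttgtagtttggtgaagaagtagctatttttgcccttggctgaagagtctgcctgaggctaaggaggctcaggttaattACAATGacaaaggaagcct
Pigl, mm9 chr11:62308339-62308439, plus strand: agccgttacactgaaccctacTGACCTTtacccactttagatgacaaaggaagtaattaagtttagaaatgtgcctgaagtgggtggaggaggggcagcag
Elovl6, mm9 chr3:129296766-129296866, plus strand: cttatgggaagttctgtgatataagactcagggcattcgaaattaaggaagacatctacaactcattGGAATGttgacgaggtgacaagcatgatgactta
B4galt1, mm9 chr4:40784589-40784689, plus strand: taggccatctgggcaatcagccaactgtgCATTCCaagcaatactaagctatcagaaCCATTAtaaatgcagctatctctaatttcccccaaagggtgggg
Fbxo36, mm9 chr1:84857410-84857510, plus strand: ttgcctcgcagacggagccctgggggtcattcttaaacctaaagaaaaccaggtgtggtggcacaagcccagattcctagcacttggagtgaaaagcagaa
Of the 8 windows, 3 (Apobec3, Plagl1 and Fbxo36) held none of the 6 motifs. The Brd1 window held a SOX match, the Pigl window an ESRRB match, the Etv5 window a KLF match and the Elovl6 window a TEAD match, and that of B4galt1 held a NANOG core and a TEAD match.

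The hosts of the 5 strongest members on mm10 all had a series-level mm9 peak in the gene body as well, with enrichments of 37.8 in Abca4, 42.5 in Sptlc2, 51.7 in Specc1, 50.7 in Siah3 and 46.7 in Dlgap3. The median of all deep gene-body peaks of that list was 7.38. The centre window of the mm9 peak of highest enrichment in each of these hosts is shown, chosen after the values were seen. These mm9 peaks were not matched to the mm10 summits, so the windows need not be the sequence of the strongest members.
Abca4, mm9 chr3:121848427-121848527, plus strand: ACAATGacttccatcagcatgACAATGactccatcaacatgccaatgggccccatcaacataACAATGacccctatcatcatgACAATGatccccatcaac
Sptlc2, mm9 chr12:88659053-88659153, plus strand: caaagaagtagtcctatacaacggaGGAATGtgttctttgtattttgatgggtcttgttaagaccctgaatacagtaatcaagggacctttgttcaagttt
Specc1, mm9 chr11:62028660-62028760, plus strand: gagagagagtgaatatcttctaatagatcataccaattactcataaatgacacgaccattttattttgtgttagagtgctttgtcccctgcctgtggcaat
Siah3, mm9 chr14:75905245-75905345, plus strand: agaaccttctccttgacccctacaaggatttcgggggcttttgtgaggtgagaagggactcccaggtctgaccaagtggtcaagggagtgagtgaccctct
Dlgap3, mm9 chr4:126904623-126904723, plus strand: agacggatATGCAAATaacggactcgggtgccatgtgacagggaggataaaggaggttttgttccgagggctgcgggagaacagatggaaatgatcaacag
The Dlgap3 window held the octamer. The Abca4 window held several SOX matches in a repeated stretch, the Sptlc2 window held a TEAD match, and the windows of Specc1 and Siah3 held none of the 6. A mm9 region is broad (median width 853 bp in this class), so its midpoint need not be the bound position.

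Across all 4388 deep gene-body peaks of the series-level mm9 list (32.9% of 13340), SOX was the most frequent motif. It stood in 16.2% of windows (exact 95% interval 15.1 to 17.3), against 6.13% of windows of the same length 300 bp away. The NANOG core was found in 7.79% and 3.90% of centre and flanking windows, ESRRB in 6.38% and 2.26%, and the octamer in 2.21% and 0.957%. TEAD (8.0% and 6.11%) and KLF (3.62% and 3.12%) were closer to their flanks. The flanking window was taken on a single side, centred 300 bp from the midpoint. The median region was 853 bp wide, so for most peaks this window lay inside the same region and not outside the peak. None of the 6 motifs differed from the 6234 intergenic peaks beyond 10 kb after adjustment over the 6 motifs (Fisher's exact test, two-sided). Intergenic shares were 17.0% for SOX, 6.77% for the NANOG core (odds ratio 1.16, Fisher's exact test, adjusted p = 0.284), 6.24% for ESRRB, 2.42% for the octamer, 3.32% for KLF and 7.94% for TEAD. In the mm9 list of replicate 1 alone, with 7198 deep gene-body peaks, the octamer (odds ratio 0.782), the NANOG core (1.15) and KLF (1.22) each reached an adjusted p = 0.0459 by Fisher's exact test. Peaks are not replicates and neighbours are not independent, so these p-values cover counting error only.

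Among the deep gene-body peaks, the SOX share was 13.3% in the lowest of 4 equal enrichment groups (exact 95% interval 11.3 to 15.5) and 19.4% in the highest (17.1 to 21.8), and these intervals did not overlap. The NANOG core went from 6.92% to 8.19% and the octamer from 1.54% to 2.58%, with intervals that overlapped. KLF went from 4.23% to 2.49%, TEAD from 9.41% to 7.12% and ESRRB from 6.44% to 5.16%, with 8.05% in the second group, also with overlapping intervals between the lowest and the highest group. The median GC content of the windows was 45.5%, against 44.6% in intergenic windows and 46.5% within 10 kb of a TSS. By the mm9 annotation, 4199 of the 4388 centres (95.7%) were intronic and 189 (4.31%) lay in an exon of a protein-coding gene, where exons make up 5.42% of the deep gene sequence. The first intron of the longest transcript held 1038 of 4268 centres (24.3%, 23.0 to 25.6). It makes up 20.5% of the deep bases of all protein-coding genes with an intron, hosts or not.

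On mm10, 29 members had their summit inside a 300 bp window of the RefSeq promoter table (build GRCm38.p6), so that they sit at an annotated start within the gene other than its outermost 5′ end. Of these, 16 were at a further start of the host itself and 13 at the start of a noncoding gene inside the host. Top peaks of both replicates, which overlapped 50.4% of all optimal peaks, overlapped 17 of the 29. These are the only members whose mm10 sequence could be read, and the 6 of highest signal among those whose window ends before the start are shown, on the strand of that start, with the same motifs in capitals.
1700019D03Rik, mm10 chr1:52953624-52953724, minus strand: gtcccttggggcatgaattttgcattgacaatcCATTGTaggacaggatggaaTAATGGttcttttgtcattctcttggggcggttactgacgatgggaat
Lpar1, mm10 chr4:58499456-58499556, minus strand: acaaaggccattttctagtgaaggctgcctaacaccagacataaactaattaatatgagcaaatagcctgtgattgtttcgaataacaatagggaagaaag
Carmil1 (Gm33573 start), mm10 chr13:24179665-24179765, plus strand: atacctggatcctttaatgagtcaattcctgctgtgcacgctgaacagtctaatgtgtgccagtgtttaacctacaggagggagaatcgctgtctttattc
Rgs12, mm10 chr5:34998901-34999001, plus strand: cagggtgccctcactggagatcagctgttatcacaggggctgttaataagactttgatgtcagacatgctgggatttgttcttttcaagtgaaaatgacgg
Map2k6, mm10 chr11:110479090-110479186, plus strand: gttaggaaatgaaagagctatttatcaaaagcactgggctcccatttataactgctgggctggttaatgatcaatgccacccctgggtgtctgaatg
Prickle1, mm10 chr15:93519678-93519770, minus strand: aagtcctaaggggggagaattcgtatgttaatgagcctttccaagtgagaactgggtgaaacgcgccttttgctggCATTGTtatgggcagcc
The 1700019D03Rik window, at the summit of a peak of signal 172, held a SOX and a NANOG core match, and the Prickle1 window held a SOX match, while the others held none of the 6. The Lpar1 peak, at a start of the gene for a lysophosphatidic acid receptor, had a signal of 157, and that at the start of the noncoding Gm33573 inside Carmil1 had 150.2. Rgs12 (95.3), Map2k6 (74.3) and Prickle1 (67.4) followed. Each of the 6 had a summit between 60 and 208 bp upstream of the start. In all 32619 promoter windows of the table, the central stretch of the same length held SOX in 4.31%, the NANOG core in 2.49%, the octamer in 0.714%, ESRRB in 1.63%, KLF in 7.26% and TEAD in 5.42%. Counting every start in that table, 89 of the 5424 members on chromosomes the table covers were within 1 kb of a start and 548 (10.1%) within 10 kb. These 548 had a median signal of 40.3, close to that of all members.

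The hosts were long genes. Among 21631 protein-coding genes, 12940 had sequence more than 10 kb from every TSS, 837.6 Mb in all, and 2861 of them (22.1%) held a member, which is the background for every count of hosts that follows. A single member was found in 1642 hosts, 2 or 3 in 863, 4 to 9 in 329 and 10 or more in 27. The 356 hosts with at least 4 members held 2045 of the 5606 (36.5%). Of genes with under 20 kb of deep sequence 4.36% held a member, of those with 50 to 100 kb 36.1%, and of those with over 500 kb 88.9%. Per length the order was different. The rate was 0.669 members per 100 kb over all deep sequence, 0.600 in the shortest group, highest at 0.768 in genes with 50 to 100 kb and lowest at 0.507 in genes with over 500 kb. Spearman's rank correlation between deep length and number of members was 0.51 across the 12940 genes, as a description.

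**Figure D1:**
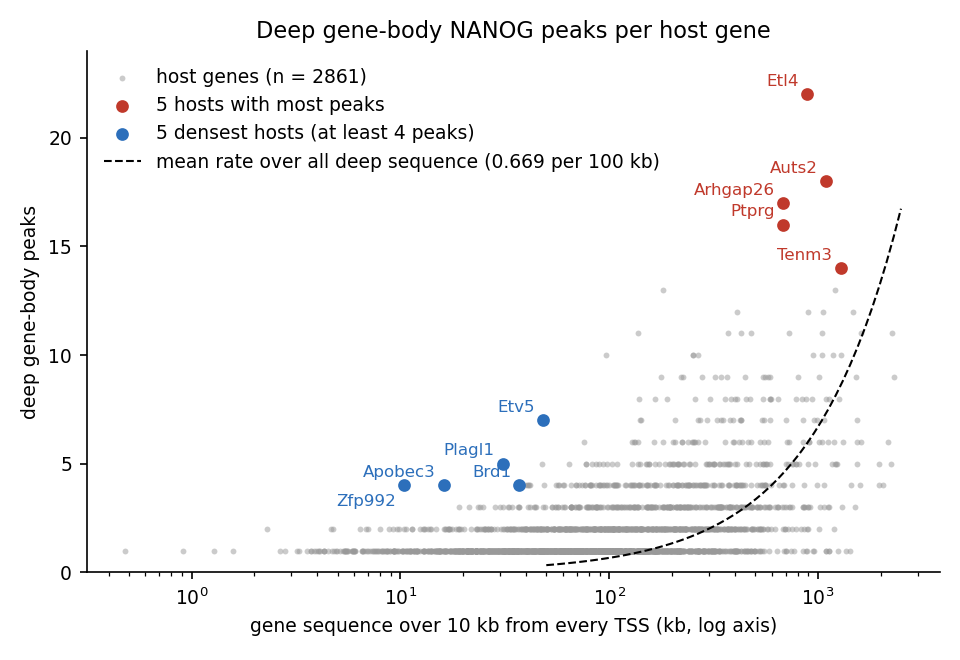
Number of deep gene-body peaks in each of the 2861 host genes (vertical axis) against the length of its sequence more than 10 kb from every TSS (horizontal log axis, kb), with the mean rate of 0.669 per 100 kb as a dashed line. Etl4 has the most peaks with 22, and the 5 densest hosts, in blue, are short genes with 4 to 7 peaks.

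Etl4, a gene needed for the intervertebral discs and also called Skt, held 22 members, more than any other gene, over 561 kb of its 900.3 kb. Their signals ran from 17.9 through a median of 45.7 to 151, and 15 of the 22 were overlapped by top peaks of both replicates. Of all optimal peaks 50.4% had such support, which is the background for this count and for those of the hosts below. The members of Etl4 lay between 267 and 828 kb downstream of the TSS. After the first 3, the nearest TSS was that of Arhgap21 and not of Etl4. Auts2, which encodes a neurodevelopmental protein found in a variant Polycomb complex, held 18 members with a median signal of 41.5. Its strongest, of signal 290, lay 65.5 kb downstream of the TSS (224 in replicate 1 and 62.4 in replicate 2), and 14 of the 18 were nearer to the TSS of Galnt17 than to its own.

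Arhgap26, for a GTPase-activating protein, held 17 members and Ptprg, for a receptor tyrosine phosphatase, 16. Those of Ptprg had the highest median signal of these 4 genes, 64.9, and 10 of the 16 had both replicates' support. Tenm3 (14 members, median signal 32.8) encodes a synaptic adhesion protein of the teneurin family. Myo10, for the myosin of filopodia, held 13 members in 181 kb of deep sequence, or 7.18 per 100 kb, while Tenm3 held its 14 in 1287 kb, or 1.09 per 100 kb. These 2 genes have similar counts at rates that differ.

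Further genes among the 15 with most members were Asic2, Glis3, Immp2l and Magi2 with 12 each and Epha4 and Fhit with 11 each. Asic2 is an acid-sensing ion channel, Magi2 a synaptic scaffold and Fhit a very long fragile-site gene. Both replicates' support was found for 3 of the 12 members in Asic2 and 10 of 12 in Immp2l, beside 50.4% of all optimal peaks. Glis3, for a zinc finger transcription factor, held a member of signal 390.2 at 119 kb, which was 249 in replicate 1 and 138 in replicate 2. On mm9, where regions are broader and fewer, the series-level list gave 16 (Etl4), 16 (Auts2), 12 (Arhgap26), 10 (Ptprg), 11 (Glis3) and 9 (Epha4) deep gene-body peaks. Tenm3, named Odz3 in the mm9 annotation, had 2 there against its 14 members on mm10, and the cause was not tested.

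Ranked by members per 100 kb of deep sequence among the 356 hosts with at least 4, the top genes were much shorter. A minimum count divided by length favours short genes, so this follows from the way of ranking. The intervals below cover counting error only and make no allowance for picking the highest of these hosts. Zfp992 came first at 38.4 per 100 kb (exact Poisson 95% interval for counting error 10.5 to 98.4), from 4 peaks in 10.4 kb of deep sequence. These 4 merge into 2 regions, their signals were 7.70, 9.31, 10.1 and 20.6, and none was overlapped by a top peak of replicate 1. Zfp992 lies in a cluster of closely related zinc finger genes, and how reads that match several copies were treated is not given in the sources used here, so its rank is uncertain. Apobec3, for an antiviral cytidine deaminase, followed at 24.8 per 100 kb (6.74 to 63.4). Its 4 peaks had signals of 27.0, 20.1, 23.5 and 159, all within 4.34 kb, and the strongest was 103 in replicate 1 and 52.9 in replicate 2.

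Plagl1, an imprinted gene for a zinc finger transcription factor, held 5 members at 16.2 per 100 kb (5.26 to 37.8), none of which overlapped another. Their signals were 50.1, 40.7, 66.1, 31.8 and 24.1 in order along the gene. The peak of highest signal, 66.1, was 60.1 in replicate 1 and 5.70 in replicate 2, and it was not among the top peaks of replicate 2, whereas that of 40.7 was 23.0 in replicate 1 and 19.8 in replicate 2. The 2 lists are called separately and their signals have no common scale, so ranks are the safer comparison: these peaks ranked 3287 and 11426 in replicate 1 and 125992 and 3064 in replicate 2.

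Etv5 encodes an ETS transcription factor that acts downstream of FGF signalling in embryonic stem cells. It held 7 members at 14.5 per 100 kb (5.83 to 29.9), between 26.5 and 41.0 kb downstream of its TSS. Following the gene from its start, their signals were 63.1, 37.7, 53.0, 16.6, 115, 135 and 38.5. Replicate 1 gave 57.1, 26.4, 44.7, 79.5, 79.5, 92.4 and 27.2 at these places and replicate 2 gave 8.13, 12.1, 12.6, 36.2, 36.2, 39.6 and 11.3. The peaks of 16.6 and 115 overlap and share 1 region in each replicate list, and 6 of the 7 were supported by both replicates, the exception being the peak nearest the TSS.

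Elovl6, for a fatty acid elongase, held 10 members at 10.4 per 100 kb (4.99 to 19.1), spread from 12.2 to 73.5 kb. The strongest were at 61.5 kb (signal 141) and 41.4 kb (133). The former was 124 in replicate 1 and 14.3 in replicate 2, and the latter 97.0 and 36.1. In 7 of the 10 both replicates gave support. Epha4, an ephrin receptor, was the one gene among both the 15 hosts with most members and the 15 densest. Its 11 members (7.98 per 100 kb, 3.98 to 14.3) all had a top peak in replicate 1, but 4 had one in replicate 2.

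The other dense hosts held 4 to 6 members at 7.94 to 10.8 per 100 kb. Brd1, a bromodomain subunit of a histone acetyltransferase complex, had a peak of 260.1 at 25.2 kb (198 in replicate 1 and 62.5 in replicate 2). Dync1i2, for a dynein chain, had a peak of 198, and Lrpprc, for a mitochondrial RNA-binding protein, had 6 peaks with a median of 69.2, of which 5 had both replicates' support. B4galt1 (galactosyltransferase, maximum 72.7), Pigl (an enzyme of GPI anchor synthesis, 93.6), Vangl1 (planar cell polarity, 116), Zfyve1 (115), Fbxo36 (139) and Dennd2c (53.5) completed the 15. In the series-level mm9 list these hosts, leaving out Zfp992, held from 1 (Zfyve1) to 9 (Epha4) deep gene-body peaks. Zfp992, matched to Gm13251 in the mm9 annotation, held 0. The ranking depends on the counting: with overlapping peaks merged first, 9 of the 15 remained and Plagl1 was first, and with at least 6 members required, 4 remained and Etv5 was first. Merging reduces the members by 242, from 5606 to 5364.

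**Figure D2:**
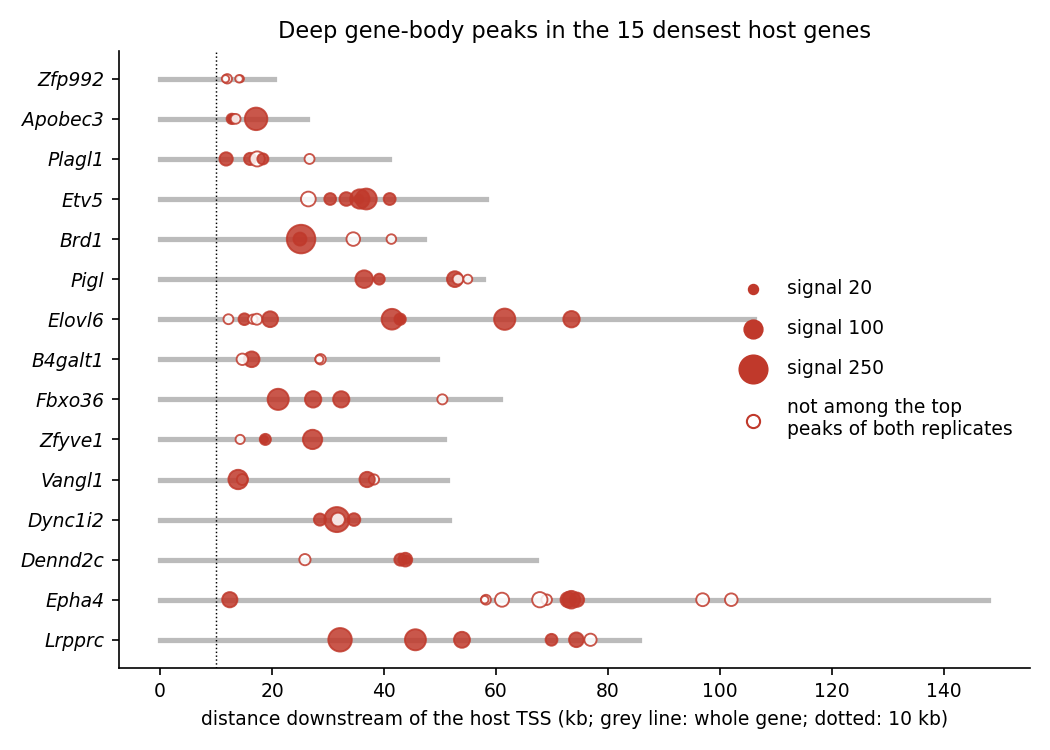
Deep gene-body peaks along the 15 densest host genes, placed by their distance downstream of the host TSS (kb), with circle area by signal and open circles for peaks not overlapped by top peaks of both replicates. Etv5 has 6 of 7 filled circles, Epha4 4 of 11 and Zfp992 none of 4.

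The 7 gene lists below were compiled for this description, and each count of hosts stands beside 22.1% of all genes with deep sequence and, since long genes are hosts more often, beside the share in all genes of the length class that holds the list's median. Among 36 genes listed as pluripotency factors, mostly transcription factors and also others such as Rif1, 22 had deep sequence and 10 of these (45.5%) held 39 members, or 1.91 per 100 kb (exact Poisson 95% interval 1.36 to 2.61). The median signal of the 39 was 38.5, below the 40.1 of all members. Foxp1 held 9 of them and Etv5 7. Esrrb, for the orphan nuclear receptor that maintains the naive state, had the strongest, with a signal of 292 at 141 kb downstream of its TSS (208 in replicate 1 and 81.2 in replicate 2). Klf9 had a peak of 279 (166 and 112) at 12.7 kb. Tfcp2l1, another naive factor, had 155, Etv5 135, Foxp1 128 and Tcf7l1, the repressor at the end of the WNT pathway, 103. The 12 without a member were Dppa4, Klf5, Nacc1, Nr5a2, Otx2, Prdm14, Rif1, Sall1, Sall4, Tbx3, Zfp42 and Zscan10. The list's median deep sequence was 27.9 kb, and of all genes with 20 to 50 kb 17.5% held a member. The list also holds much longer genes, such as Foxp1, whose strongest member lay 509 kb downstream of its TSS. Of all genes with over 500 kb, 88.9% were hosts, so 17.5% is a low background for the list. No share matched for length gene by gene was computed.

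Of 56 genes for chromatin and DNA methylation proteins, all with deep sequence, 27 (48.2%) held 73 members, or 1.28 per 100 kb (1.00 to 1.61). The list's median deep length was 69.6 kb, and 36.1% of all genes with 50 to 100 kb were hosts. The median signal was 53.6, against 40.1 for all members, and 69.9% had both replicates' support, against 50.4% of all members. Support is more frequent at higher signal, as described further below. Tet2 and Tet3, which oxidise methylated cytosine, had peaks of 323 (207 in replicate 1 and 115 in replicate 2) and 279 (201 and 83.8), while Tet1 had none in its deep sequence. The acetyltransferase Kat6a had 206, the remodeller Chd7 205, the Polycomb protein Rybp 205 and the BAF subunit Arid1b 186. Dnmt1, Dnmt3b, Ezh2, Suz12, Eed and Ep300 were among the 29 without one.

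Of 46 genes of LIF, FGF, BMP, Nodal and WNT signalling with deep sequence, 13 (28.3%) held 26 members at 0.696 per 100 kb (0.455 to 1.02), close to the 0.669 of all deep sequence. With a median deep length of 60.3 kb, their share of hosts lay below the 36.1% of all genes with 50 to 100 kb. Those 26 had a median signal of 53.8, and 73.1% had both replicates' support, against 40.1 and 50.4% for all members. Lgr4, an R-spondin receptor, had the strongest at 288 (184 in replicate 1 and 104 in replicate 2). The kinase Gsk3b had 185 and Lifr, a subunit of the LIF receptor, 165. Ror2, Spred2 and Bmpr1b followed with 98.0, 89.8 and 80.6. Il6st, Stat3, Jak1, Ctnnb1 and the Smad genes listed had none.

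Transcription factors of later lineages held members in 36 of 54 genes (66.7%), 145 peaks at 0.902 per 100 kb (0.761 to 1.06). This list also includes Auts2, described above as a protein of a variant Polycomb complex, with 18 of the 145. The list's median deep length was 217 kb, and of all genes with 200 to 500 kb 76.1% were hosts. Nfib, a nuclear factor I gene of lung and brain, had 433 (284 in replicate 1 and 148 in replicate 2), Glis3 390.2, Tox, of developing T cells, 301, Auts2 290, Sox5 230.3 and Foxn3 217. The adhesion, guidance and synapse genes were hosts in 51 of 56 cases (91.1%), with 276 peaks, but at 0.562 per 100 kb (0.497 to 0.632). Cntn5 had 350.2, Ephb1 317, Magi2 289, Tenm3 289, Csmd1 273 and Ctnna1 258. Of the 276, 42.4% had both replicates' support, the lowest share of the 7 lists, against 50.4% of all members.

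Ion channels and neurotransmitter receptors were hosts in 28 of 36 cases (77.8%), with 83 peaks at 0.398 per 100 kb (0.317 to 0.493), the lowest rate of the 7 lists. Their median deep length was 494 kb, in the same class with 76.1% hosts. Ryr3 (271) and Grin2b (235) had the strongest. Very long genes of common fragile sites were hosts in 22 of 23 cases (95.7%), with 133 peaks at 0.503 per 100 kb (0.421 to 0.596). Pde4d had 237, Prkg1 194, Ccser1 184, Thsd7a 170.2 and Sdk1 164. The 2 lists with the highest percentage of hosts, of adhesion and of fragile-site genes, had rates below that of all deep sequence. Their median deep lengths were 858 and 1171 kb, and 88.9% of all genes with over 500 kb were hosts.

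Members lay throughout the gene. Among 5587 with a host of known strand, the median summit was 68.8 kb downstream of the host's TSS (quartiles 30.7 and 174, maximum 2263 kb), and the median relative position was 0.543 of the gene's length. To the nearest TSS of any protein-coding gene the median was 54.2 kb (25.4 to 122). In 10 equal bins along the gene, there were 7.44 summits per Mb of deep sequence in the first bin and 6.45 in the last, with 6.20 to 7.08 between. The 5′ side of the gene, up to its middle, held 45.4% of members (exact 95% interval 44.1 to 46.7), and 44.0% of the deep bases themselves are on that side.

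As a background from the same assay, the 100000 regions of lowest signal in the relaxed list of the pool, called low-ranked regions, were placed by the same rule, of which 38822 were deep gene-body regions. Of these, 41.6% lay on the 5′ side, against 45.4% of members (odds ratio 1.17, adjusted p = 1.12e-07 over 3 tests, Fisher's exact test, two-sided). The deep bases, with 44.0% on that side, lay nearer to the members than to the low-ranked regions. Members were not tested against the sequence itself. The nearest TSS was that of the host for 3772 members (67.3%, 66.0 to 68.5), against 64.6% of low-ranked regions (odds ratio 1.13, Fisher's exact test, adjusted p = 0.000105). Beyond 10 kb from every TSS, 44.6% of optimal summits were inside a gene, fewer than the 48.0% of low-ranked summits (odds ratio 0.874, Fisher's exact test, adjusted p = 6.73e-12). With the top peaks of replicate 2 alone in place of the optimal set, the last 2 differences missed the threshold of 0.05 (odds ratios 1.06 and 0.990, Fisher's exact test, adjusted p = 0.0534 and 0.589). The difference from low-ranked regions in the 5′ side passed it under each of the 11 alternatives tried (Fisher's exact test, adjusted p from 1.08e-11 to 0.016). Regions are not replicates, and these p-values cover counting error only.

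**Figure D3:**
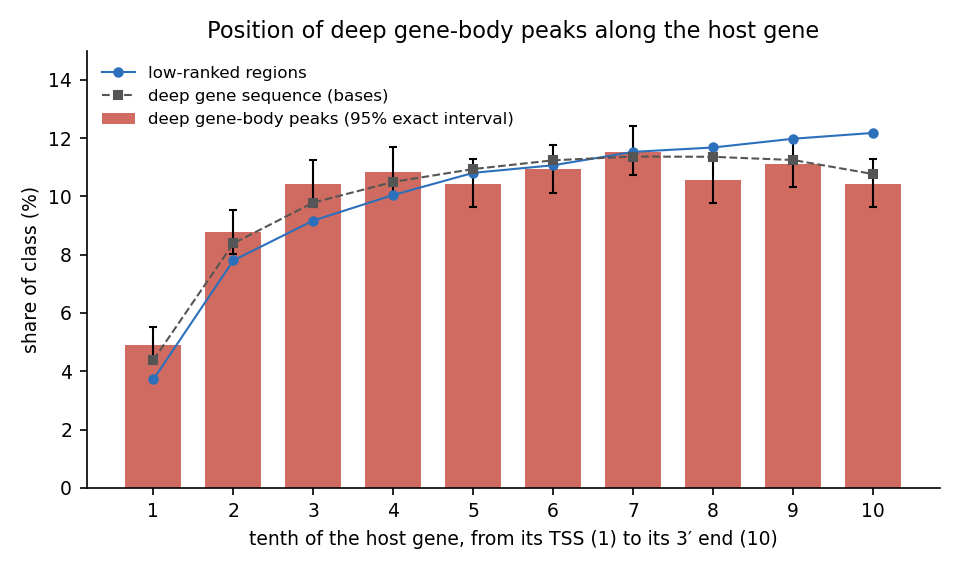
Share of deep gene-body peaks (bars, with exact 95% intervals), of low-ranked regions (circles) and of the deep gene sequence itself (squares) in each of 10 equal bins of the host gene from its TSS to its 3′ end. In the first bin the peaks hold 4.90%, the low-ranked regions 3.72% and the deep sequence 4.39%. In the last bin they hold 10.4%, 12.2% and 10.8%.

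The 1834 members nearest to the TSS of another gene lay farther along, at a median relative position of 0.780 against 0.403 for the 3772 nearest to their host's own TSS. This is largely built into the grouping, since both values come from the distance to the host's TSS. The median signals of these groups were 38.6 and 40.8, and 48.9% and 51.2% had both replicates' support. A relation of signal to distance was not tested. The median was 37.7 at 10 to 20 kb from the nearest TSS, 41.5 at 20 to 50 kb, 38.3 at 50 to 100 kb, 39.8 at 100 to 200 kb, 43.2 at 200 to 500 kb and 43.7 beyond 500 kb. The shares with both replicates' support in these bands ran from 47.2% to 53.1%. At the edge of the rule, the 5 peaks just under 10 kb, in Fbxl19, Zdbf2, Nnmt, Tnip3 and Mansc4 (9984 to 9998 bp), had signals of 21.3 to 46.5. Those just over it, in Rarg, Agpat5, Pptc7, Pgm2 and Rpgrip1 (10002 to 10068 bp), had 24.6 to 77.4.

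Members also stood near other peaks. The median distance to the next optimal summit was 26.4 kb (quartiles 5.25 and 74.6 kb), with 741 members (13.2%) within 1 kb of one and 3642 (65.0%) within 50 kb. In all, 484 members (8.63%) overlapped another optimal peak. These distances and overlaps were not computed for the other classes, so they cannot be called particular to members. Most members have the same width of 364 bp (78.4%), as do 78.0% of all optimal peaks.

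The signal of members, the authors' enrichment statistic of unstated scale, ran from 7.34 through quartiles of 27.5, 40.1 and 68.8 to 631. The medians were 40.9 for intergenic peaks beyond 10 kb and 38.6 for peaks within 10 kb of a TSS. At or above the median of all optimal peaks, 40.2, were 49.9% of members, 51.1% of the intergenic peaks (odds ratio 0.950, adjusted p = 0.313) and 47.8% of those near a TSS (1.08, adjusted p = 0.313), by Fisher's exact test, two-sided, adjusted over 6 tests. Among the top peaks of replicate 2 alone, both odds ratios were below 1 and passed the threshold (0.826 and 0.905, Fisher's exact test, adjusted p = 1.95e-07 and 0.0283), so that the comparison with peaks near a TSS turned its direction.

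**Figure D4:**
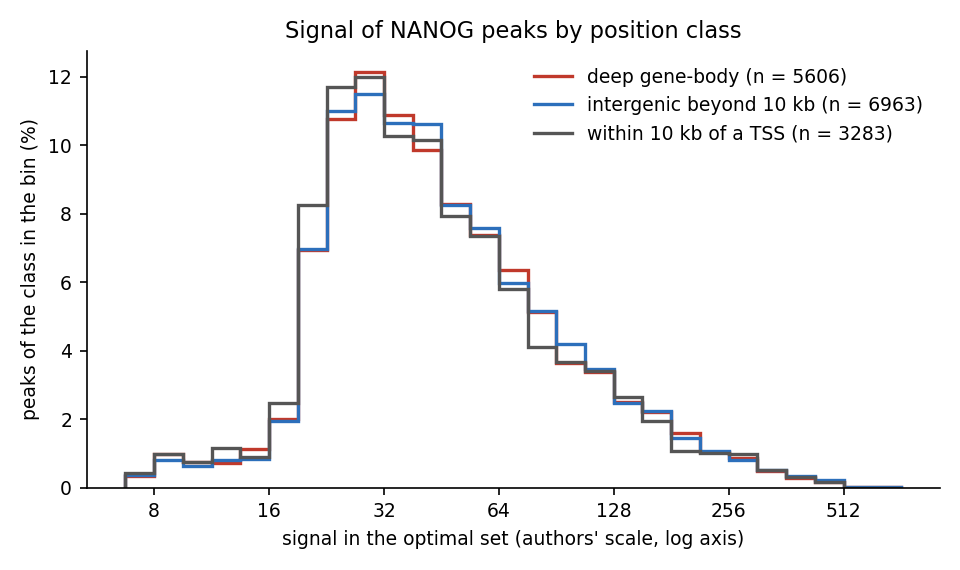
Percentage of peaks of each position class (vertical axis) by signal in the optimal set (horizontal log axis, authors' scale). The 3 outlines lie close together, with medians of 40.1 for the 5606 deep gene-body peaks, 40.9 for intergenic peaks and 38.6 for peaks within 10 kb of a TSS.

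The 20 members of highest signal ran from 401 to 631, and all 20 were in the conservative set and among the top peaks of both replicates. Abca4, for a lipid transporter of photoreceptors, led with 631 at 102 kb downstream of its TSS. It ranked 1 in replicate 1 (signal 387) and 4 in replicate 2 (244), and the nearest TSS was that of Gclm, 99.9 kb away. Sptlc2, for a subunit of serine palmitoyltransferase, followed with 629 (369 and 266), 18.3 kb from the TSS of Ism2. Specc1 had 525 (308 and 219) near the 3′ end of the gene, at 97.1% of its length, 33.7 kb from Adora2b.

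Siah3 had 514, Dlgap3, a postsynaptic scaffold gene, 511, Ttc25, a gene of motile cilia, 500.5, Ttll11, for a tubulin-modifying enzyme, 476 and Elmo1, for a regulator of Rac, 463. Pakap (449), Prickle1 (444), Epb41l4a (440.5), Myo5a (440.3), Nfib (433), Thada (432.5), Ak3 and Cdc37l1, which overlap (428), Cdyl (425), Fgd4 (425), Frmd4a (407.5), Gss (406) and Gmnc (401) made up the rest. Gss encodes glutathione synthetase, Gmnc a regulator of multiciliated cells and Cdyl a chromodomain corepressor. Replicate 1 signals of the 20 ran from 269 to 387 and those of replicate 2 from 115 to 266.

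**Figure D5:**
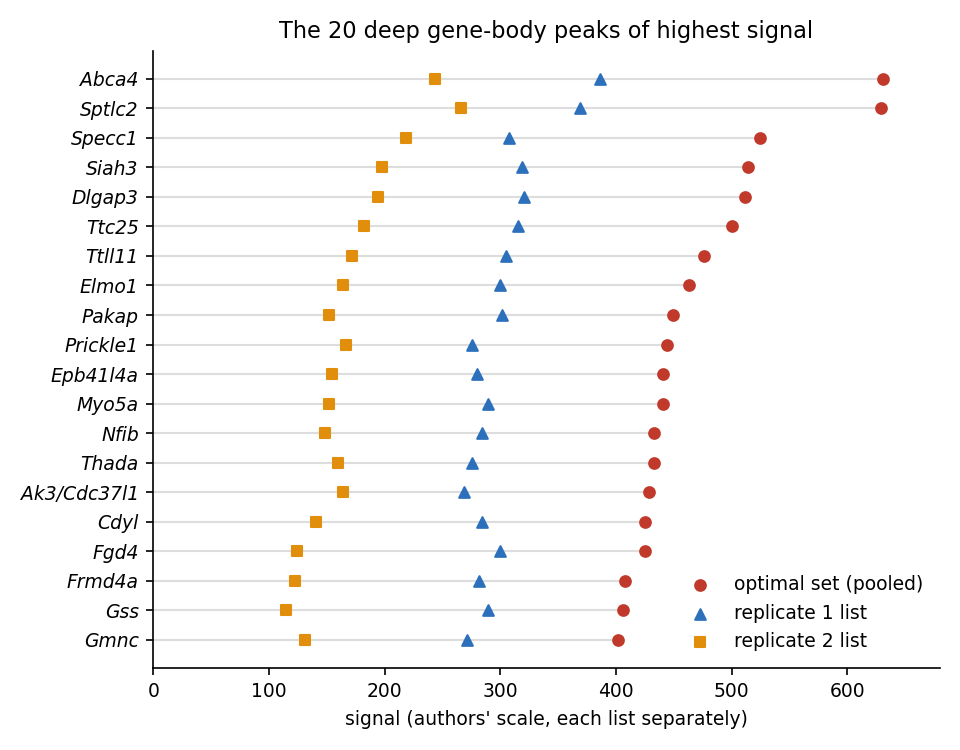
Signal of the 20 strongest deep gene-body peaks in the optimal set (circles) and of the overlapping regions in the replicate 1 list (triangles) and the replicate 2 list (squares), on the authors' scale, with each list called separately. The optimal signals run from 401 in Gmnc to 631 in Abca4, and each peak was found in both replicates.

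At the other end, 397 members (7.08%) had a signal under 20. Of these, 222 overlapped another optimal peak, 189 of them one of higher signal, and 77 were overlapped by top peaks of both replicates. Signals as low as the low-ranked regions, at or under 8.39, were found for 35 members, and 34 of these overlapped another optimal peak. The low-ranked regions come from another list, and whether it shares a scale with the optimal set is not stated. The weakest member, in Rapgef1, had 7.34, with 15.6 in replicate 1 and no region in replicate 2. The next, in Sgms1, had 7.36 beside 82.0 and 24.8 in the replicates. Where members overlap, the replicate value belongs to the region they share.

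Replicate support was uneven between the replicates. A top peak of replicate 1, among as many as the optimal set holds, overlapped 4862 members (86.7%), and one of replicate 2 overlapped 3047 (54.4%). The shares of all optimal peaks were nearly the same, 86.4% and 54.6%, so the unevenness belongs to the whole set. Both overlapped 2826 (50.4%, exact 95% interval 49.1 to 51.7), where the share of all optimal peaks was 50.4%. Replicate 1 alone accounted for 2036, replicate 2 alone for 221, and neither list for 523 (9.33%, against 9.47% of all optimal peaks). The conservative set overlapped 3200 members (57.1%), where the share of all optimal peaks was 56.7%. In the full relaxed lists of 300000 regions, 5591 members had a region in replicate 1 (median signal 32.1) and 4765 in replicate 2 (median 11.1), and the signals of the 4751 found in both had a Spearman's rank correlation of 0.678 across peaks, as a description.

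The pooled signal and the replicate ranks rest on the same reads, so support is bound to be more frequent at higher signal, and its level is a description. In 4 groups cut at the quartiles of signal of the optimal set, top peaks of both replicates overlapped 8.82%, 30.8%, 65.2% and 96.4% of members, from the lowest group to the highest. All 194 members with a signal of at least 200 had both replicates and the conservative set. Within these groups, peaks near a TSS had both replicates' support in 4.55%, 32.3%, 72.8% and 98.6%, and intergenic peaks in 8.23%, 27.2%, 66.0% and 97.6%. The intervals of members and peaks near a TSS did not overlap in the lowest group, where members were higher (7.37 to 10.4 against 3.29 to 6.12), nor in the third (62.6 to 67.7 against 69.5 to 75.8) and the highest, where they were lower. These differences within groups were not tested. Over all signals, no difference in support between the classes passed the threshold. By Fisher's exact test over the same 6 tests, both replicates supported 50.5% of intergenic peaks (odds ratio 0.996, adjusted p = 0.9) and 50.1% of peaks near a TSS (1.01, adjusted p = 0.9), and the conservative set overlapped 57.0% (1.01, adjusted p = 0.9) and 55.5% (1.07, adjusted p = 0.313). With the top peaks of replicate 2 alone, the conservative set overlapped fewer deep gene-body than intergenic peaks (odds ratio 0.759, Fisher's exact test, adjusted p = 6.58e-14). With a distance of 5 kb in place of 10 kb, both the conservative set (1.16, adjusted p = 0.0197) and the signal (1.17, adjusted p = 0.0156) passed the threshold against peaks near a TSS by Fisher's exact test.

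The X chromosome was sparse. It held 97 members in 37.7 Mb of deep sequence, or 0.257 per 100 kb (exact Poisson 95% interval 0.209 to 0.314), against 0.689 on the autosomes (0.671 to 0.707). The autosomes ranged from 0.589 on chromosome 3 to 0.796 on chromosome 10. Low-ranked regions were also fewer on the X, at 0.864 per 100 kb against 4.81 on the autosomes. The line is male with a single X, so fewer copies and fewer sites per copy cannot be told apart. Members on the X had a median signal of 39.9 and both replicates' support in 47.4%, against 40.1 and 50.5% on the autosomes.

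In the mm9 lists, which were never matched to mm10 positions, the share of deep gene-body peaks was 32.9% in the series-level list (32.1 to 33.7), 32.6% of 22076 peaks in replicate 1 and 32.5% of 6618 in replicate 2. Of the 4388 series-level members, 99.6% overlapped a replicate 1 peak and 46.5% a replicate 2 peak, and intergenic peaks gave 99.7% and 46.8%. Their median enrichment was 7.38, against 7.55 for intergenic peaks.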

How the data were processed

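The 2 biological replicates of NANOG ChIP-seq were deposited as peak lists. Per the file headers and notes, the authors derived relaxed mm10 lists, with a control, for each replicate and their pool, and from them the optimal and conservative IDR sets. The aligner, the caller and their thresholds are not stated in the labels or headers. Each mm10 peak's deposited signal value is the authors' enrichment statistic, as is the enrichment signal of mm9. Signals were tested only within a list, and optimal signals were set beside those of the relaxed lists as a description. The deposited q-value of mm9 peaks served 1 alternative filter. Read depth is unknown, so precision rests on peak numbers.

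Computed here, with Python 3.11.15, pandas 2.3.3, SciPy 1.17.1 and statsmodels 0.14.6: summits were placed by RefSeq genes of GRCm38.p6, with the 5′ end of a gene as its TSS. Strand came from the promoter table for 17274 genes and from the mm9 annotation for 3994, and both ends counted for 363 without strand. Replicate support was 1 bp of overlap with the 15891 highest peaks of a replicate. Tests were Fisher's exact test, two-sided, with Benjamini-Hochberg adjustment and a threshold of 0.05, and intervals are exact at 95%. Hosts named were the 15 with most members, the 15 densest with at least 4, those of the 20 strongest members and up to 6 per gene list; a few of these genes are not reported here. The members, lists and tests were chosen with earlier results of these data known. Alternatives changed the distance, summit, gene set, overlap, list, replicate, window and mm9 q-value filter. The 6 motifs were the same in all of them. The scripts were tested on simulated data.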

Additional observations from a re-analysis of the deposited data

How the results depend on the processing

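Of 137 recomputed values, 120 kept their side of the threshold or stayed close. Among these, 17 odds ratios that passed the threshold neither before nor after lay on the other side of 1 (0.895 to 1.12), so the direction of uncalled differences is not settled. The share of members was 39.8% at 5 kb, 29.1% at 20 kb and 31.9% with every start of the promoter table as TSS (chosen after seeing the data). The odds ratios for the conservative set and the signal against peaks near a TSS were 1.16 and 1.17 at 5 kb. Of the 15 densest hosts, 8 remained with at least 3 members, 4 with at least 6 and 9 with overlapping peaks merged (the last added after seeing the data).

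Leaving out a replicate gave these ranges, where the value that changed came from replicate 2 alone: share 35.6% to 37.5%; conservative set against intergenic 0.759 to 0.990; signal against intergenic 0.826 to 0.926 and against peaks near a TSS 0.905 to 1.08; gene-body share against low-ranked 0.874 to 0.990; host TSS nearest 1.06 to 1.17. For motifs the change came with replicate 1 alone: octamer 0.782 to 0.871, NANOG core 1.15 to 1.22 and KLF 1.06 to 1.22. The cause was not tested. Support by both replicates has no value without a replicate. No paired analysis was possible because there is only 1 group. Read depth, which sets how many weak peaks can be called, is unknown.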

Other observations

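Several hosts that enter the densest 15 only under another way of counting are well known in embryonic stem cells, and they were chosen after their values were seen. Others that enter in the same way, among them Fam167a, Timp2, Tmem156, Lrp11, Napb, Nacc2, Rai14, Nxn and Morc1, are not described. The genes below therefore do not stand for dense hosts as a set. Slc2a3, the glucose transporter gene beside Nanog, held 5 members at 7.75 per 100 kb, none of them overlapping another, with signals from 25.8 to 87.0, and 4 of the 5 had support from both replicates. Cdh1, for E-cadherin, the adhesion molecule of these cells, held 4 at 7.03 per 100 kb, with signals up to 104 and support from both replicates in 3.

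Il17rd, for a membrane inhibitor of FGF signalling, held 4 members with a highest signal of 338. Bcl2l1, for the survival protein BCL-XL, held 4 with signals from 36.1 to 86.6. Among hosts with at least 6 members, Cradd, for an adaptor of the caspase pathway, held 8 at 5.74 per 100 kb with a highest signal of 226, and Arid5b held 9 at 5.09 per 100 kb, all 9 with a top peak of replicate 1.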
